A study of Mus musculus with 6 samples.

Results

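The genes described here mark the capillary endothelium of the mouse lung. They are the 10 rows of the deposited table, out of 21900 genes, whose symbols are Car4, Ednrb, Apln, Tbx2, Gpihbp1, Aplnr, Plvap, Cdh5, Pecam1 and Kdr; all 10 symbols were found. The members were given by name, not by their values. Total RNA from whole lung was sequenced in 6 libraries, all from mice given a high fat diet, called a western diet in the title, over 10 weeks. There were 3 libraries labelled Cyp1b1 KO (a knockout of the cytochrome P450 gene Cyp1b1) and 3 labelled wild type, each with 2 females (libraries 1 and 2) and 1 male (library 3). The sources used here do not give age, strain or how the knockout allele was made, and they do not state which libraries came from separate animals. The p-values therefore measure the spread among these libraries, which may be technical.

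Gas exchange in the alveolus runs through a net of capillaries built from 2 kinds of endothelial cell. Aerocytes are large, thin cells specialised for gas exchange, and general capillary cells also regulate vessel tone and act as progenitors in repair. Apelin, the secreted peptide encoded by Apln, is made by aerocytes, and its receptor Aplnr sits on general capillary cells, so the pair links both cell types. Car4 (a carbonic anhydrase anchored at the cell surface), Ednrb (an endothelin receptor), Apln and Tbx2 (a T-box transcription factor) are the aerocyte genes here. Gpihbp1 (the capillary anchor of lipoprotein lipase), Aplnr and Plvap (the protein of endothelial diaphragms) are the general capillary genes. Cdh5 (VE-cadherin, the adhesion protein of endothelial junctions), Pecam1 (CD31, a junction protein also carried by platelets and leukocytes) and Kdr (VEGF receptor 2, highest in aerocytes) are expressed in endothelium more widely. In RNA from whole lung, fewer cells of a type and less RNA per cell cannot be told apart. Of the aerocyte genes, Car4 is also transcribed in mouse alveolar macrophages and Tbx2 in mesenchymal cells.

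Sequences from GENCODE and RefSeq show the ligand of Aplnr, the receptor gene with the widest departure below, and the upstream regions of the members with an entry. The coding sequence of Apln holds 77 codons (mm10 chrX:48028302-48034505, minus strand, spliced, 231 bases without the stop codon, GENCODE M21). Capitals mark the last 39 bases, which encode the 13-residue peptide at the end of the precursor known as apelin-13.
Apln coding: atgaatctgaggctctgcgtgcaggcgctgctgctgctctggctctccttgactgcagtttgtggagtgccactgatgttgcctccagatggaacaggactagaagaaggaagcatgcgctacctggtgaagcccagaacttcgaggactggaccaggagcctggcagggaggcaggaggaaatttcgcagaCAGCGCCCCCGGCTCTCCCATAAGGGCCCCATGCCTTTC
RefSeq start regions (GRCm38.p6) were matched by symbol for 4 of the 10 members, Apln, Ednrb, Car4 and Kdr. The windows below are up to 250 bases upstream of the RefSeq start, written 5′ to 3′ on the gene's strand and free of GENCODE exons. They lie at chrX:48034854-48035103 (minus strand) for Apln, chr14:103843702-103843951 (minus strand) for Ednrb, chr11:84957504-84957753 (plus strand) for Car4 and chr5:75978459-75978705 (minus strand) for Kdr. The Ednrb window lies inside the GENCODE span of its gene, 103814625 to 103844402, and is upstream of the RefSeq start only. The windows are shown because Apln and Ednrb, both aerocyte genes, had their lowest values in different male libraries. Capitals mark GGAA or its reverse complement TTCC, the core letters bound by ETS factors, a family with many endothelial members.
Apln upstream: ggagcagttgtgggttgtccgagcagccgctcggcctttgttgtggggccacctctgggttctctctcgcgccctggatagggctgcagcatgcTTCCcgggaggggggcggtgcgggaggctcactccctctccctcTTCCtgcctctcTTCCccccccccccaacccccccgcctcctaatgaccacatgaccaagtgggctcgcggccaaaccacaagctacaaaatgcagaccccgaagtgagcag
Ednrb upstream: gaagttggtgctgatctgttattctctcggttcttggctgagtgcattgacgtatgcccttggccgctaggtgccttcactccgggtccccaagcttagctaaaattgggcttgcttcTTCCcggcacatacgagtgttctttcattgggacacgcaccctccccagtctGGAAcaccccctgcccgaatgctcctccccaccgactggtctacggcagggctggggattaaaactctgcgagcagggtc
Car4 upstream: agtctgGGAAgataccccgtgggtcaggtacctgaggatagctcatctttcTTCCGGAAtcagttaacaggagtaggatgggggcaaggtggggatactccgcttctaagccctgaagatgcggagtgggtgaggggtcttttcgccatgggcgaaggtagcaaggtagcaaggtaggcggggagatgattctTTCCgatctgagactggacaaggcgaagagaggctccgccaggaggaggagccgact
Kdr upstream: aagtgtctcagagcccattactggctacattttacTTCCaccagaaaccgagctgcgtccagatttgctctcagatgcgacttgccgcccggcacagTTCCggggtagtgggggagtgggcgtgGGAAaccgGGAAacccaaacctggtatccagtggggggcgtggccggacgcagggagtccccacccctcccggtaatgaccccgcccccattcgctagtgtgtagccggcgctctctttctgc
The core was counted on both strands and occurred 3 times upstream of Apln, 2 times for Ednrb, 4 times for Car4 and 4 times for Kdr. It occurs in 93.4% of all 32817 windows of 250 bases, with a median of 3, so most windows hold it. The core letters of the hypoxia response element, ACGTG or GCGTG on either strand, were found 2 times for Kdr, 1 time for Ednrb and not in the windows of Apln and Car4, against 38.6% of all windows with at least 1.

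Values are CPM, reads of a gene per 1000000 assigned reads, and the step between low values puts the depth at 20.2 to 27.6 M (1000000) reads in each library. Cyp1b1 itself went against the labels, with 51.2, 56.1 and 48.4 CPM in the libraries labelled knockout, against 12.5, 19.04 and 18.5 CPM in the libraries labelled wild type (limma adjusted p = 0.0588), so both groups are called "labelled" throughout. The male labelled knockout stood apart in neutrophil and platelet genes, and both males stood apart from the females in erythroid and pan-leukocyte genes. The 8 neutrophil markers summed to 5635 CPM in the male labelled knockout, against 119 to 221 CPM in the other 5 libraries, and the 6 platelet markers to 349 CPM, against 31.5 to 56.5 CPM. The 5 erythroid markers summed to 5848 CPM in that male, 2760 CPM in the male labelled wild type and 851 to 1607 CPM in the females. Of the 6 leukocyte markers, the pan-leukocyte genes Ptprc, Coro1a, Cd52 and Laptm5 were higher in both males than in any female, while the lymphocyte genes Cd3e (T cells) and Cd79a (B cells) were lowest of the 6 libraries in the male labelled knockout, at 4.87 and 13.6 CPM, against 5.84 to 21.7 CPM for Cd3e and 33.7 to 74.2 CPM for Cd79a in the other 5. The limma adjusted p-values for the interaction were 0.0723 for Cd3e and 0.0650 for Cd79a, outside the threshold. Every marker in these lists had reads in at least 1 library. The lung's own markers were present in all libraries, with Sftpc, the type 2 cell surfactant gene, at 7541 to 12270 CPM and Ager, a type 1 cell gene, at 1099 to 1669 CPM. What these differences contribute to the values below was not tested, and results that rest on a male are given without it where a value remains.

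**Figure D1:**
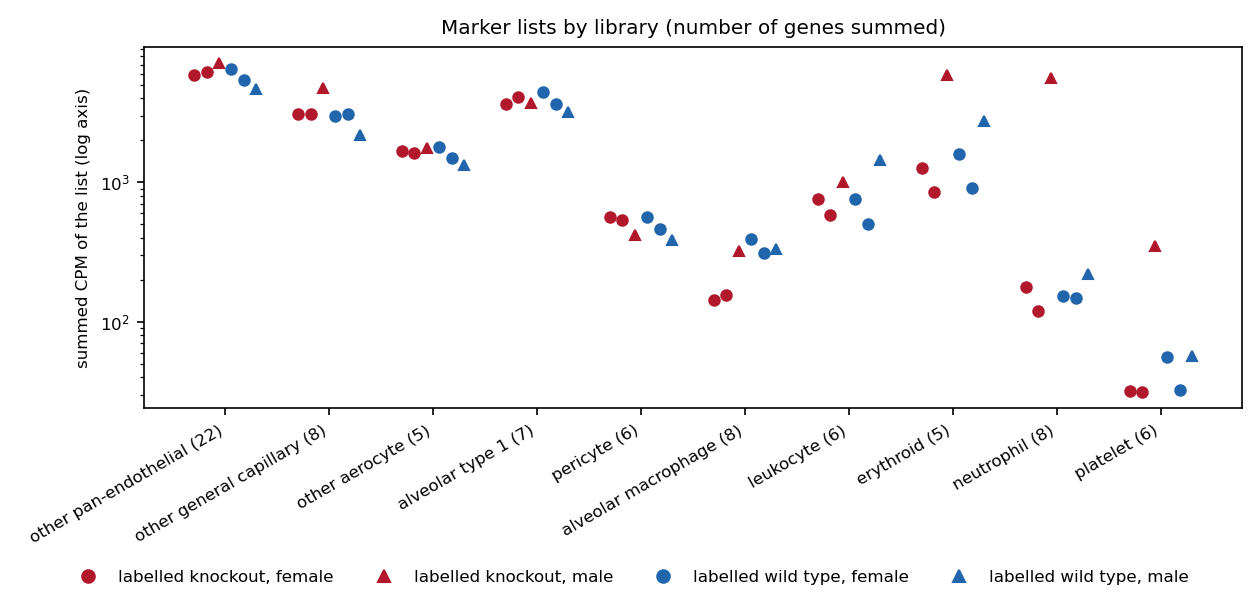
Summed CPM of marker lists (log axis, number of genes summed in brackets) in each of the 6 libraries; colour gives the genotype label, circles are females and triangles males. The male labelled knockout reached 5635 CPM for neutrophil and 349 CPM for platelet markers. Its 22 other pan-endothelial genes summed to 7134 CPM, the highest of the 6 libraries. By the mean log2 level of these genes, labelled wild type 1 was highest, at 7.41, against 7.26 in that male. Of the 22 genes, 4 were lowest in that male (Emcn, Egfl7, Mmrn2 and Myct1).

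None of the 10 capillary genes passed the comparison of genotype labels, in which 0.0115% of the 17382 genes tested were called. The test was limma on log2(CPM + 0.5) with sex as a second term, Benjamini-Hochberg adjustment over all genes and an adjusted p under 0.05 as the threshold. All 10 members passed the filter, a mean of at least 0.5 CPM. Their log2 differences, labelled knockout minus labelled wild type, ranged from -1.48 for Aplnr to 0.39 for Ednrb with a median of 0.11, beside a median of -0.06 over all genes tested. At an unadjusted p under 0.05 there were 2 members, Aplnr and Ednrb, where 5.13% of all genes reached that level. The labels overlapped for each of the 10 members, whereas 9.52% of all genes showed no overlap. The 95% intervals of the log2 differences ran from -0.26 to 0.47 for Car4, from -0.31 to 0.27 for Gpihbp1 and from -0.88 to 0.71 for Apln. Each of these intervals holds both signs, so none of these 3 differences could be told from none. For Aplnr the interval was -2.92 to -0.04 and for Ednrb 0.02 to 0.76, neither adjusted for the number of genes tested.

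**Figure D2:**
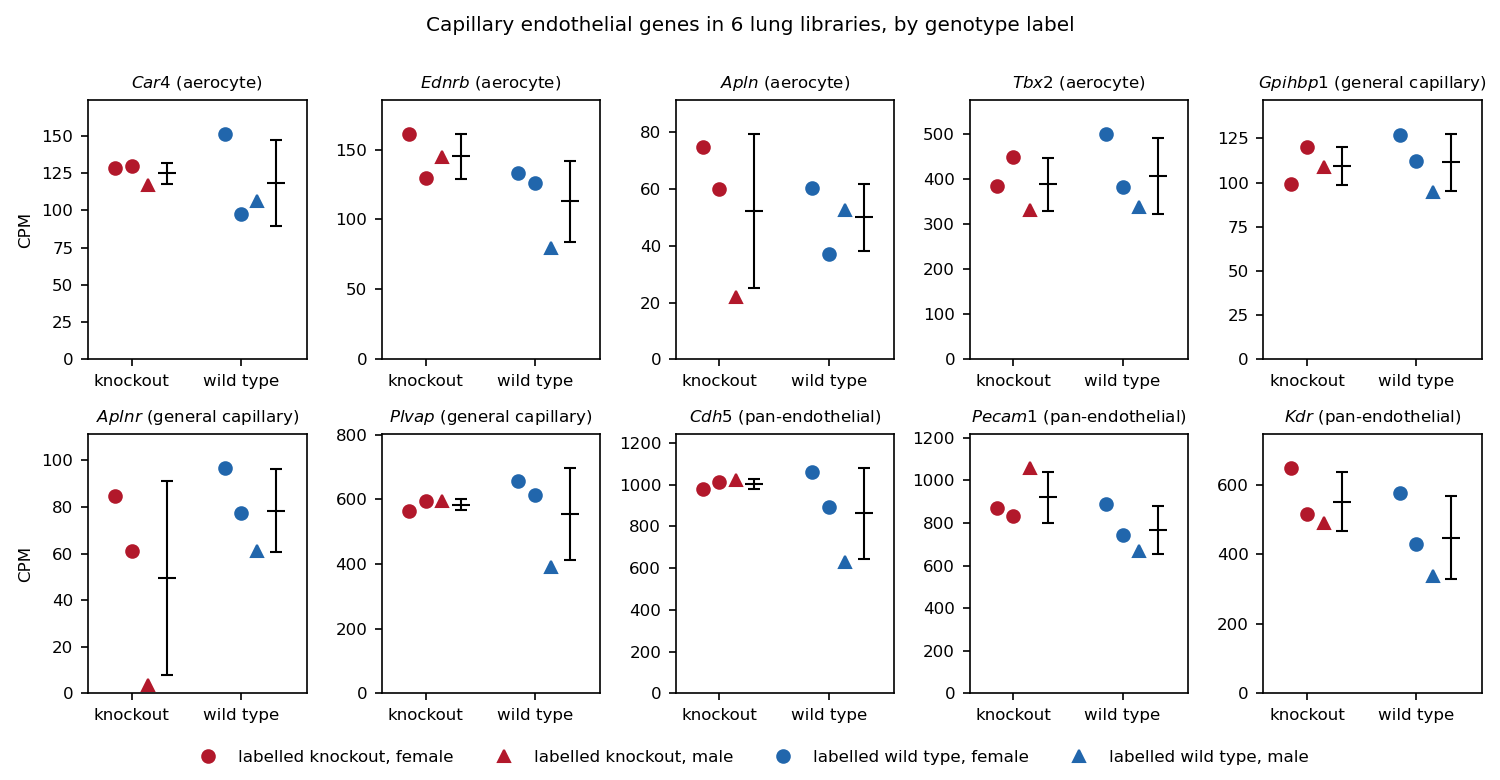
CPM of the 10 genes in each library (points; circles females, triangles males), with the mean and SD of each label's 3 libraries beside them (bars), each axis starting at 0. The labels overlap in every panel, and Aplnr in the male labelled knockout, at 3.63 CPM, lies far below the other 5 libraries, at 60.98 to 96.7 CPM.

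The apelin receptor gene gave the widest departure of any member, and it sat in 1 library. Aplnr (ENSMUSG00000044338, mm10 chromosome 2, 85136225 to 85139923, plus strand, its exons forming 1 block) was at 84.6, 60.98 and 3.63 CPM in labelled knockout 1, 2 and 3, against 96.7, 77.3 and 61.1 CPM in labelled wild type 1, 2 and 3. The male labelled knockout therefore stood alone at the bottom, 21.0-fold under the mean of the other 5 libraries, 76.1 CPM. At the depth of that library 3.63 CPM is worth 93 reads, against 1431 to 2310 reads in the others, and 3 reads in it would be 0.117 CPM. The means were 49.7 ± 41.6 CPM in the libraries labelled knockout, against 78.3 ± 17.8 CPM in those labelled wild type (SD, n = 3 each), with a log2 difference of -1.48 (SE 0.62, limma adjusted p = 0.775). In the 4 females the difference was -0.27 on the same scale. Between the males it was -3.90, and the difference of these differences, the interaction of genotype label and sex, was -3.63 (SE 0.32, 95% interval -4.36 to -2.90, limma adjusted p = 0.00107). With 1 male per label the test sets 2 single males against the spread of the females and takes each male to vary as much as they do. The call ended when low genes were not filtered out, at an adjusted p of 0.104, where no gene at all was called; over the alternatives the limma adjusted p ran from 0.000331 to 0.104.

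Aplnr was the only one of the 10 members past this interaction, in which 2.54% of all genes were called, 1.84% lower and 0.702% higher. Few genes of similar abundance had so isolated a low value in the male labelled knockout. Among 12911 genes with a mean of at least 5 CPM, Aplnr ranked at place 9 for the ratio of the lowest other library to that male, 16.8, and the 8 genes ahead of it had means between 5.19 and 11.01 CPM, against 64.0 CPM for Aplnr. This ranking was chosen after the values were seen and is a description with no test. The ratio was above 10 for 0.0697% of these genes.

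Apln, which encodes the ligand, was also lowest in the male labelled knockout, by a smaller step that did not pass the test. Apln (ENSMUSG00000037010, chromosome X, 48025146 to 48034853, minus strand) had 74.8, 60.0 and 21.9 CPM in labelled knockout 1, 2 and 3, against 60.4, 37.2 and 52.7 CPM in labelled wild type 1, 2 and 3. The labels overlapped, with the highest and the lowest value both among the libraries labelled knockout. Means were 52.2 ± 27.3 CPM for the label knockout, against 50.1 ± 11.8 CPM for the label wild type (SD, n = 3 each; log2 difference -0.09, SE 0.34, limma adjusted p = 0.956). The log2 difference was 0.49 between the females and -1.25 between the males, and the interaction, -1.74 (SE 0.38), had a limma adjusted p of 0.0570. It passed without labelled wild type 1 (0.01003) or without labelled wild type 2 (0.0387), and the adjusted p was as high as 0.259 when low genes were not filtered out. The Apln to Aplnr ratio of CPM was 6.05 in the male labelled knockout, 0.88 and 0.98 in the females of that label, and 0.62, 0.48 and 0.86 in labelled wild type 1, 2 and 3. The B cell marker Cd79a had a similar set of high and low libraries, at 63.3, 51.4 and 13.6 CPM in labelled knockout 1, 2 and 3, against 74.2, 33.7 and 62.3 CPM in labelled wild type 1, 2 and 3. The part of lymphocytes in the Apln values was not tested. Apela, a further ligand of the receptor, was not analysed here.

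Cdh5, Pecam1 and Kdr did not show a drop of the size of that of Aplnr in the male labelled knockout. That male minus the females of its label was -4.13 for Aplnr, 0.04 for Cdh5, 0.31 for Pecam1 and -0.24 for Kdr (log2 scale). Of the 22 further pan-endothelial genes, 4 were lowest in that male, beside 37.5% of all genes, and the median difference of the 22 was -0.11. The part of platelets and leukocytes in the Pecam1 values was not tested. Against the mean log2 level of Cdh5, Pecam1 and Kdr in the same library, Aplnr was at -3.27, -3.62 and -7.62 in labelled knockout 1, 2 and 3 and at -3.07, -3.08 and -3.09 in labelled wild type 1, 2 and 3. On that relative scale the 3 libraries labelled wild type lay close together, and the male labelled knockout stood far below every other library. Apln was at -3.45, -3.65 and -5.17 in the libraries labelled knockout, against -3.75, -4.13 and -3.30 in those labelled wild type. Gpihbp1 and Plvap, the other general capillary members, did not show the drop. Gpihbp1 was at -3.05, -2.65 and -2.89 in the libraries labelled knockout and between -2.68 and -2.46 in those labelled wild type, and Plvap lay between -0.54 and -0.11 in all 6 libraries. Of the 8 further general capillary genes, 1 was lowest in the male labelled knockout, Glp1r, at 112 CPM, against 126 to 202 CPM in the others.

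**Figure D3:**
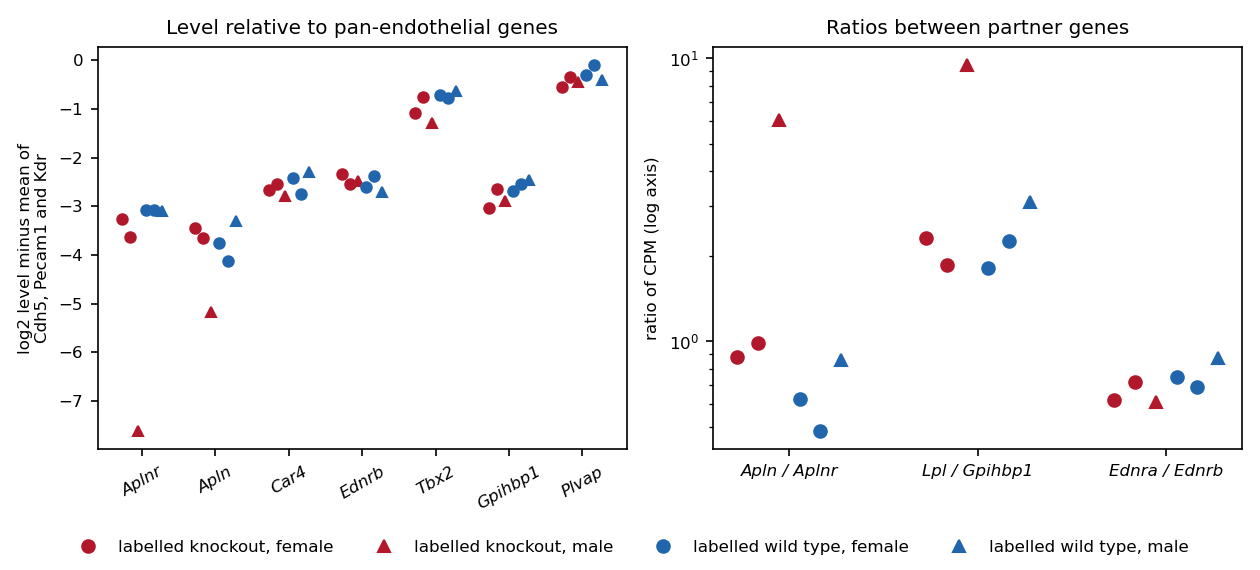
Left, level of each aerocyte and general capillary gene minus the mean of Cdh5, Pecam1 and Kdr in the same library (log2 scale); right, ratios of CPM between partner genes (log axis). Aplnr in the male labelled knockout, at -7.62, is the point farthest from the others, and the same library has the highest Apln to Aplnr ratio, 6.05, and the highest Lpl to Gpihbp1 ratio, 9.45.

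The other aerocyte genes had no call between the labels. Ednrb (ENSMUSG00000022122, chromosome 14, 103814625 to 103844402, minus strand), which binds endothelins and clears them from the lung circulation, was at 161, 130 and 145 CPM in labelled knockout 1, 2 and 3, against 133, 126 and 79.5 CPM in labelled wild type 1, 2 and 3. The male labelled wild type was the lowest of the 6, and labelled wild type 1 lay above labelled knockout 2. The means were 145 ± 15.8 CPM for the label knockout, against 113 ± 29.1 CPM for the label wild type (SD, n = 3 each; log2 difference 0.39, SE 0.16, limma adjusted p = 0.775), and in the 4 females the difference was 0.16. Car4 (ENSMUSG00000000805, chromosome 11, 84957786 to 84966044, plus strand) had 128, 130 and 117 CPM in the libraries labelled knockout, against 151, 97.3 and 106 CPM in those labelled wild type. Its mean was 125 ± 7.08 CPM for the label knockout, against 118 ± 29.0 CPM for the label wild type (SD, n = 3 each; log2 difference 0.10, SE 0.16, limma adjusted p = 0.873). The 8 alveolar macrophage markers summed to 144, 155 and 322 CPM in the libraries labelled knockout, against 391, 311 and 332 CPM in those labelled wild type, and their part in the Car4 values was not tested.

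Tbx2 (ENSMUSG00000000093, chromosome 11, 85832551 to 85841948, plus strand) had 385, 449 and 331 CPM in labelled knockout 1, 2 and 3, against 499.9, 383 and 337 CPM in labelled wild type 1, 2 and 3. Its log2 difference between the labels was -0.06 (SE 0.13, limma adjusted p = 0.921). Both males lay below all 4 females, at 331 and 337 CPM against 383 to 499.9 CPM, the only member for which the sexes did not overlap; the sexes did not overlap for 24% of all genes, and 14.7% had both males lowest. The log2 difference of males minus females was -0.35 (SE 0.14) with a limma adjusted p of 0.290, outside the threshold. Outside the members, 5 further aerocyte genes were tested, and none passed for genotype, sex or the interaction. Of these, Fibin was at 69.2, 80.2 and 80.6 CPM in the libraries labelled knockout, against 79.3, 56.4 and 51.6 CPM in those labelled wild type. Prx, which encodes periaxin, was at 323, 320.0 and 472 CPM in the libraries labelled knockout, against 311, 250.3 and 251 CPM in those labelled wild type (log2 difference 0.44, limma adjusted p = 0.775), with no overlap between the labels.

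The partners of Ednrb, the endothelins that signal through it, showed no call either. Of the 7 genes of the endothelin list, 5 reached the level for testing and 0 passed in any of the comparisons. Edn1, the main endothelial endothelin, was at 33.3, 65.9 and 75.7 CPM in labelled knockout 1, 2 and 3, against 47.1, 54.0 and 37.6 CPM in labelled wild type 1, 2 and 3. These values overlapped widely (log2 difference 0.27, limma adjusted p = 0.828). Ednra, the receptor of smooth muscle and pericytes, kept a ratio to Ednrb between 0.61 and 0.87 in all 6 libraries, with the highest ratio in the male labelled wild type. Ece1, which cleaves the endothelin precursors, ranged from 313 to 459 CPM. Edn2 and Ece2 lay under the minimum mean of 0.5 CPM.

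Gpihbp1 was the steadiest member, while the enzyme it anchors was high in 1 male. Gpihbp1 (ENSMUSG00000022579, chromosome 15, 75596628 to 75599481, plus strand) had 99.0, 120.4 and 109 CPM in labelled knockout 1, 2 and 3, against 127, 112 and 94.8 CPM in labelled wild type 1, 2 and 3. Its SD over the 6 libraries was 11.2% of its mean, the smallest share among the 10 members, against 51.0% for Aplnr. The log2 difference between the labels was -0.02 (SE 0.13, 95% interval -0.31 to 0.27), and -0.13 in the 4 females. Lpl, lipoprotein lipase, which several lung cell types make and capillaries display on Gpihbp1, was at 229, 224 and 1030.2 CPM in the libraries labelled knockout, against 232, 254 and 295 CPM in those labelled wild type. The male labelled knockout was the outlying library again (interaction 1.90, SE 0.18, limma adjusted p = 0.00144). Its Lpl to Gpihbp1 ratio of CPM was 9.45, against 2.31 and 1.86 in the females of that label and 1.82, 2.26 and 3.11 in labelled wild type 1, 2 and 3. Of the 9 genes of the lipolysis list, Lpl rose and Fabp5, a fatty acid binding protein, fell in the interaction, and 0 passed for genotype. The interaction called 2.54% of all genes. Cd36, the fatty acid transporter of capillary endothelium, was at 1011, 1025 and 1297 CPM in the libraries labelled knockout, against 1063, 1034 and 724 CPM in those labelled wild type, with a limma adjusted p of 0.0528 for the interaction.

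The male labelled wild type had the lowest value for 6 of the 10 members (Ednrb, Gpihbp1, Plvap, Cdh5, Pecam1 and Kdr) and the highest for none, where it was lowest for 18% and highest for 25.7% of all genes. The male labelled knockout was lowest for 3 (Apln, Tbx2 and Aplnr) and highest for 1 (Pecam1), beside 37.5% and 17.6% of all genes. Plvap (ENSMUSG00000034845, chromosome 8, 71497765 to 71511752, minus strand) had 564, 593 and 594 CPM in labelled knockout 1, 2 and 3, against 658, 612 and 391 CPM in labelled wild type 1, 2 and 3. The libraries labelled knockout lay close together inside the range of those labelled wild type. Its interaction was 0.73 (SE 0.18, limma adjusted p = 0.0810), past the threshold under median centring (0.0328) and under TMM-type scaling (0.0483). Cdh5 (ENSMUSG00000031871, chromosome 8, 104101625 to 104144511, plus strand) had 978, 1013 and 1022 CPM in the libraries labelled knockout, against 1062, 894 and 631 CPM in those labelled wild type. The means were 1004 ± 23.2 CPM for the label knockout, against 862 ± 217 CPM for the label wild type (SD, n = 3 each; log2 difference 0.25, SE 0.17, limma adjusted p = 0.775), and in the 4 females the log2 difference was 0.03.

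Pecam1 (ENSMUSG00000020717, chromosome 11, 106654217 to 106750628, minus strand) had 872, 833 and 1057 CPM in labelled knockout 1, 2 and 3, against 889, 743 and 669 CPM in labelled wild type 1, 2 and 3. It was the only member with its highest value in the male labelled knockout, the library with the highest platelet and neutrophil sums. What those cells contribute to this value was not tested. Its log2 difference between the labels was 0.26 (SE 0.16, limma adjusted p = 0.775), and 0.07 in the 4 females, which is also the value without either male. Kdr (ENSMUSG00000062960, chromosome 5, 75932827 to 75978458, minus strand) had 649, 516 and 490.1 CPM in the libraries labelled knockout, against 576, 430.5 and 339 CPM in those labelled wild type. In both labels the male was lowest for Kdr, though the male labelled knockout lay above labelled wild type 2. Its log2 difference was 0.32 (SE 0.16) between the labels and -0.40 (SE 0.17) for males minus females, with limma adjusted p-values of 0.775 and 0.317; between the labels it was 0.22 in the 4 females.

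The VEGF system around Kdr held no call in any comparison, with 12 of 12 listed genes tested. Vegfa, the main ligand and a product of alveolar type 1 cells, was at 699.7, 829 and 591 CPM in labelled knockout 1, 2 and 3, against 819, 814 and 679.8 CPM in labelled wild type 1, 2 and 3. In each label the male was the lowest. Flt1, the decoy receptor, was at 297, 302 and 398 CPM in the libraries labelled knockout, against 278, 282 and 238 CPM in those labelled wild type (interaction limma adjusted p = 0.0933), and the co-receptor Nrp1 ranged from 208 to 334 CPM over the 6 libraries. Of the 9 Notch pathway genes tested, 1 was called, Hey1, a Notch target of arterial endothelium. It rose in the interaction (1.01, limma adjusted p = 0.0386), in which 2.54% of all genes were called. Hey1 was at 75.8, 85.5 and 110.2 CPM in the libraries labelled knockout, against 100.2, 95.5 and 66.3 CPM in those labelled wild type.

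Between males and females, none of the 10 members passed limma, where 0.834% of all genes did. The log2 differences of males minus females were below 0 for 9 of the 10, with a median of -0.34 beside -0.05 over all genes, and Pecam1, at 0.01, was the exception, although quantile normalization put it at -0.057. Some lists of other resident lung cells had negative sex differences throughout. All 7 alveolar type 1 genes (median -0.24, 5 of 7 under TMM-type scaling) and all 6 alveolar type 2 genes (-0.23) were below 0. So were all 6 pericyte genes (-0.32) and all 6 fibroblast genes (-0.40). Several other lists were mixed. Values were above 0 for 3 of 8 further general capillary genes and 6 of 22 further pan-endothelial genes. The same held for 4 of 8 alveolar macrophage genes and 3 of 6 lymphatic genes. No difference between these lists and the capillary genes was tested. At an unadjusted p under 0.05 there were 3 members, where 15.3% of all genes reached that level. Aplnr had the largest, -2.31 (SE 0.66, limma adjusted p = 0.155), and it rested on the male labelled knockout. Without that male, the difference for Aplnr was -0.50, and without the male labelled wild type it was -4.13. Which members had the largest differences changed with the male that was kept. With the male labelled wild type as the only male, the differences were -0.70 for Ednrb and -0.70 for Plvap. With the male labelled knockout as the only male, they were -4.13 for Aplnr and -1.59 for Apln, and Ednrb was level between the sexes (-0.0001). Of the genes in other endothelial lists, Glp1r, a receptor of general capillary cells (-0.63, limma adjusted p = 0.0446), and the sialomucin Emcn (-0.72, 0.0393) were lower in males. The males had 112 and 126 CPM of Glp1r, with 172 to 202 CPM in the females, and 28.1 and 32.5 CPM of Emcn, with 46.8 to 54.1 CPM in the females. Both calls ended without any single female, with limma adjusted p-values of 0.0725 to 0.192 for Glp1r and 0.0849 to 0.187 for Emcn, and under median centring (0.0757 for Glp1r, 0.0526 for Emcn); that for Glp1r also ended under TMM-type scaling (0.0601).

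**Figure D4:**
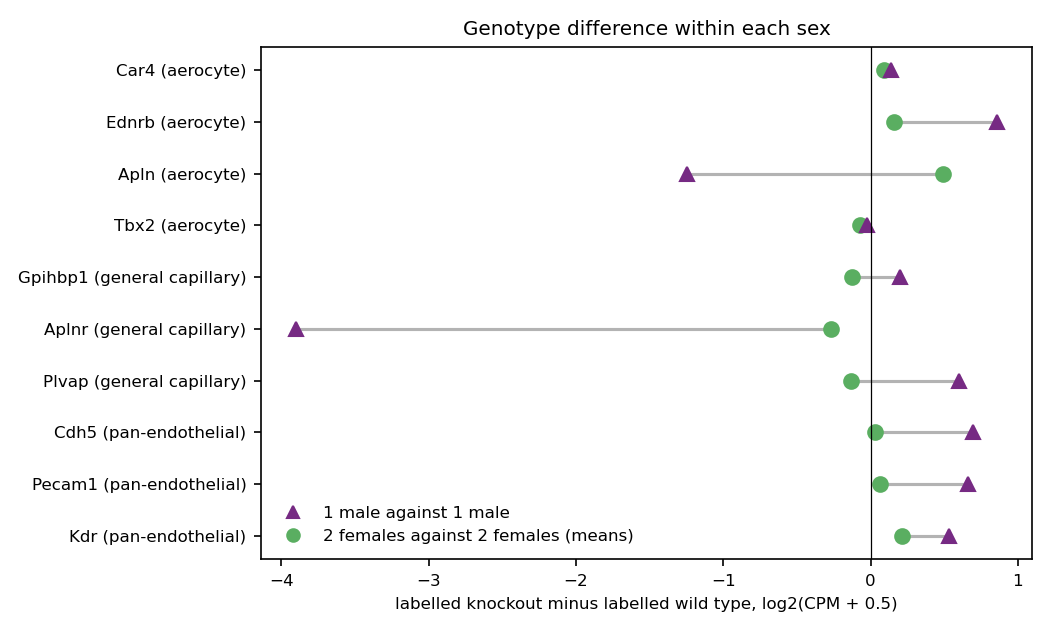
Difference of labelled knockout minus labelled wild type on the log2(CPM + 0.5) scale for each member, between the males (triangles, 1 library against 1) and between the females (circles, means of 2 against 2). The female differences lie between -0.27 and 0.49; the male differences are -3.90 for Aplnr, -1.25 for Apln, -0.03 for Tbx2 and between 0.14 and 0.86 for the other 7.

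Away from the apelin pair, the male labelled knockout had higher values than the male labelled wild type for several endothelial transcripts. For the interaction, 8 of the 10 members had a positive value, with a median of 0.32 beside -0.13 over all genes. There were 6 members with an unadjusted p under 0.05, where 17.9% of all genes reached that level: Aplnr and Apln with negative values, and Ednrb, Plvap, Cdh5 and Pecam1 with positive ones. Of the members with a positive value, Tbx2 had a male difference of -0.03. Of the 8 further general capillary genes tested, 4 rose in the interaction and 0 fell, where 0.702% of all genes were called higher and 1.84% lower. The 4 were Lpl, Cd93, a C-type lectin of endothelium, Sema3c, a semaphorin, and Adgrl3, a latrophilin. Cd93 was at 486, 482 and 823 CPM in labelled knockout 1, 2 and 3, against 441, 440.3 and 361 CPM in labelled wild type 1, 2 and 3 (interaction 1.05, limma adjusted p = 0.0191). Sema3c was at 545, 576 and 859.6 CPM in the libraries labelled knockout, against 581, 552 and 348 CPM in those labelled wild type (1.32, 0.00926 by limma). The females of both labels were close together in both genes, and the males lay on opposite sides of them. Of the 22 further pan-endothelial genes, 1 rose, Eng (endoglin, a TGF-beta co-receptor; 1.05, limma adjusted p = 0.0293), and 0 fell.

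Markers of larger vessels moved in both directions. The interaction called 0.702% of all genes higher and 1.84% lower. Of 8 arterial genes, Hey1 and the kinase gene Bmx (1.81, limma adjusted p = 0.0388) rose in the interaction. Of 7 venous genes, Vwf, the von Willebrand factor of larger vessels that platelets also carry, rose. It was at 550.5, 611 and 1891 CPM in labelled knockout 1, 2 and 3, against 701, 676 and 517 CPM in labelled wild type 1, 2 and 3 (2.12, SE 0.19, limma adjusted p = 0.00125). The adhesion molecule Vcam1 fell, at 104, 86.1 and 38.3 CPM in the libraries labelled knockout, against 102, 89.7 and 165 CPM in those labelled wild type (-2.07, limma adjusted p = 0.00326). None of 6 lymphatic genes was called. Each of these calls, like that for Aplnr, rests on 1 male per label and ended when low genes were not filtered out. The calls for Cd93 (limma adjusted p = 0.0705 and 0.0644), Eng (0.0941 and 0.0711), Hey1 (0.132 and 0.0747) and Bmx (0.0971 and 0.0846) also ended without labelled knockout 1 and without labelled knockout 2, and that for Bmx without labelled wild type 1 (0.0608). In the genotype comparison, no gene of any endothelial list passed limma.

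Levels can be compared between genes after division by exon length (CPM per 1000 bases of GENCODE exons, mean ± SD over the 6 libraries). Plvap came highest at 286 ± 46.4, followed by Cdh5 at 222 ± 37.7, Pecam1 at 135 ± 21.4, Tbx2 at 109.6 ± 18.1, Car4 at 61.9 ± 9.77, Kdr at 55.4 ± 12.02, Gpihbp1 at 43.2 ± 4.82, Ednrb at 30.2 ± 6.42, Aplnr at 17.3 ± 8.83 and Apln at 16.3 ± 5.98 CPM per 1000 bases. Ranges over the libraries overlapped between all neighbours in this order except Tbx2 and Car4. Within a library the order was more regular: each neighbour pair held its order in 6 of 6 libraries, except Car4 above Kdr, in 5, and Aplnr above Apln, in 2. Aplnr was therefore below Apln in the other 4 libraries.

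Profiles over the 6 libraries were compared by the root mean square difference of centred log2 values, among the 12910 other genes that averaged 5 CPM or more. The gene nearest to Cdh5 was Tspan7, a tetraspanin, at 0.017 log2 units, and Tek, the endothelial receptor of angiopoietins, was the next at 0.048. Nearest to Car4 was Cldn5, the claudin of endothelial tight junctions, at 0.058, and nearest to Ednrb was Mme, a membrane peptidase, at 0.053. Nearest to Kdr was Gpc3, a glypican, at 0.042. Nearest to Apln were Rfc3, a replication factor subunit, at 0.143, and the B cell genes Ighd, at 0.151, and Cxcr5, at 0.159. Aplnr had no close neighbour: the smallest difference was 0.50, and Apln stood 1.12 log2 units away. Among the members, Plvap and Cdh5 were nearest to each other, at 0.085. These distances describe 6 libraries, were not tested, and follow the sets of high and low libraries that the genes share.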

How the data were processed

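The deposited values are CPM for 21900 genes in 6 libraries; per the submitters' processing notes TopHat2, Partek and the mouse build mm10 were used. Versions, annotation, filters, strand and the counting rule are not stated, so reads shared with overlapping genes could not be judged beyond GENCODE M21, in which no member shares exon bases with another gene. From 82.2% to 83.4% of low values were within 0.05 of whole reads, too few for a count test. Genes with a mean of at least 0.5 CPM were tested as log2(CPM + 0.5) in limma 3.58.1 (R 4.3.3) with genotype label and sex, and in a second fit with their interaction, with Benjamini-Hochberg adjustment over all genes; fold changes of low genes are understated. The code of the genotype comparison was tested on simulated data, and the sex and interaction fits were not. Fits with another pseudocount, filter, scaling or moderation, with females alone and without each library were alternatives. Named are all members, Cyp1b1, genes of the pathway lists, up to 4 called genes of each other list (up to 2 if none was called) and up to 3 nearest profiles; beyond these, genes named to describe libraries were chosen for their known roles, and the leukocyte genes after their values were seen. The members and lists were chosen with earlier results of these data known. Figures and summaries used matplotlib 3.10.9, numpy 2.4.6 and pandas 2.3.3 in Python 3.11.15.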

Additional observations from a re-analysis of the deposited data

Results flagged for a closer look

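For 1 capillary gene and 10 genes of the endothelial and pathway lists, the difference between genotype labels was not the same in males and females by limma's interaction test. On the log2 scale the difference in males minus that in females was -3.63 for Aplnr, -2.07 for Vcam1 and -2.005 for Fabp5. It was 2.12 for Vwf, 1.90 for Lpl, 1.81 for Bmx, 1.35 for Adgrl3, 1.32 for Sema3c, 1.05 for Cd93, 1.05 for Eng and 1.01 for Hey1. Each of these rests on 1 male per label, and each call ended when low genes were not filtered out. The interaction called 2.54% of all genes tested. The same 2 males differ in neutrophil markers, whose sum was 5635 CPM in the male labelled knockout, against 221 CPM in the male labelled wild type. They also differ in lymphocyte markers, with 4.87 CPM of Cd3e and 13.6 CPM of Cd79a in the male labelled knockout, against 21.7 CPM of Cd3e and 62.3 CPM of Cd79a in the male labelled wild type. The part of these cells in the values above was not tested. Groups of 3 libraries are too small for a test of single outlying samples.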

How the results depend on the processing

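With 1 male per label, the interaction cannot be told apart from differences between 2 libraries, and without a male it has no value. The genotype count, 2 genes, was 7 with the 4 females only, 5 with TMM-type scaling, 1 with a minimum mean of 5 CPM, 6 with median centring, 6 with no filter, 6 with quantile normalization, 6 with robust moderation and 1 to 4 without single libraries. The sex count, 145, was 21 to 840 without single libraries. The interaction count, 441, was 0 with no filter and 230 to 577 without single libraries. Members past the threshold in the interaction, 1 in the reported fit, were 2 with TMM-type scaling, 2 with median centring, 0 with no filter and 1 to 2 without single libraries; in the sex comparison they were 0 to 2 without single libraries, against 0. The genotype difference changed sign for Apln (0.49 with females only, 0.017 with median centring), Plvap (-0.13 with females only), Gpihbp1 (0.031 with TMM-type scaling, 0.084 with median centring) and Tbx2 (0.045 with median centring). The sex difference of Pecam1 became -0.057 with quantile normalization. Without single libraries, genotype differences ran from -0.072 to 0.29 for Car4, -0.45 to 0.49 for Apln, -0.16 to 0.056 for Tbx2, -0.13 to 0.092 for Gpihbp1 and -0.13 to 0.21 for Plvap. Sex differences ran from -1.59 to 0.15 for Apln, -0.70 to 0.038 for Plvap, -0.63 to 0.038 for Cdh5 and -0.28 to 0.31 for Pecam1, and interactions from -0.27 to 0.37 for Car4 and -0.14 to 0.24 for Tbx2. Omitting either male gave the females' genotype difference, because the sex term takes up the remaining male. Median centring moved the median of all genes to 0.09 in the interaction, against -0.13 unscaled, and to 0.047 in the genotype comparison, against -0.056. Of 416 alternative values, 382 were counted as unchanged. For single genes this meant the same direction and side of the threshold. The count also holds the centred aerocyte minus pan-endothelial level of each of the 6 libraries, which has no threshold. That of labelled wild type 3 went from 0.23 to -0.023 with the other pan-endothelial list as reference, yet was counted as unchanged. Of the 82 alternative counts of called genes or members, 55 stayed within a factor of 1.5 of the reported count and 27 moved beyond it. The cause of the changes was not tested. No paired analysis was possible because replicate numbers were given in accession order and only name the libraries.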
